A study of Mus musculus with 8 samples.

Results

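The response of mouse skin to 7,12-dimethylbenz(a)anthracene (DMBA) was described in the 4 of 8 arrays whose signal for Cd109, the gene that was deleted in the study, lay near background. DMBA is a polycyclic aromatic hydrocarbon that is applied once to mouse skin to initiate tumours. An array was included when its Cd109 signal was below −5 on the log2 scale, relative to the 75th percentile of that array. This rule took both DMBA-treated arrays of CD109-/- skin (replicates 1 and 2) and 2 DMBA-untreated arrays, the array labelled CD109+/+ replicate 2 and the array labelled CD109-/- replicate 2. The other 4 arrays, with a higher Cd109 signal, were 2 DMBA-treated CD109+/+ arrays and the untreated arrays labelled CD109+/+ replicate 1 and CD109-/- replicate 1. All arrays were of whole skin of female mice of the FVB/N background, taken 24 h after treatment, and the untreated mice had received acetone, the solvent of DMBA. CD109-/- mice are a constitutive knockout that was crossed back to FVB/N, and whole skin mixes epidermis, follicles, dermis, fat and muscle. Averaged over 17 epidermal and activation keratins, the signal was 3.46 and 3.33 in DMBA-treated skin, against 3.26 and 2.97 in untreated skin. The age of the mice on the arrays is not given in the sources used here. The labels do not say whether the replicates were separate mice, and the p-values then describe the scatter of these samples alone, which may be technical.

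Cd109 encodes a membrane-anchored glycoprotein of keratinocytes that acts as a co-receptor for transforming growth factor beta. Its signal was −8.06 and −7.70 on the DMBA-treated CD109-/- arrays, against −6.49 on the untreated array labelled CD109+/+ replicate 2 and −8.11 on the untreated CD109-/- replicate 2. None of these 4 signals was well above the background of its array. On the 4 arrays above the limit the signals were 0.84 and 1.42 on the DMBA-treated CD109+/+ arrays, 2.06 on the untreated CD109+/+ replicate 1 and 1.66 on the untreated array labelled CD109-/- replicate 1. The values nearest to the limit were therefore −6.49 below it and 0.84 above it. The arrays were chosen by these measured values, which are given as a description with no test. They go against the labels of 2 untreated arrays, the one labelled CD109+/+ replicate 2, which lacked the Cd109 signal, and the one labelled CD109-/- replicate 1, which had it. Counts of probes and medians of gene lists are therefore also given without the untreated array labelled CD109+/+ replicate 2, called the contradicted array below. For 83 single genes, leaving it out moved the log2 fold change by over 1.5 times in 5, Akr1c19 (2.16), Cdkn1a (0.19), Ahrr (−0.031), Nfe2l2 (−0.061) and Krt71 (−0.084), and changed the sign of none, with 3 of the 4 arrays shared between both values. All 8 arrays lay on 1 slide and were scanned together, but the DMBA-treated arrays filled the first row of the slide and the untreated arrays the second, so that slide position cannot be told apart from treatment.

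DMBA itself is not the reactive agent. It binds the aryl hydrocarbon (Ah) receptor, a ligand-activated transcription factor that pairs with Arnt and induces cytochromes P450 of the Cyp1 family, and these enzymes oxidise DMBA to diol epoxides that form DNA adducts. Adducts are removed by nucleotide excision repair or bypassed by translesion polymerases, and the damage can stabilise p53, which induces genes of cell cycle arrest and apoptosis. Electrophiles and oxidants also release the transcription factor Nrf2, which induces conjugating and reducing enzymes. Mouse skin changes with the hair cycle: in the growth phase (anagen) follicles extend deep into the dermis and produce hair keratins in large amounts.

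The signal of hair genes was high on all 4 arrays. Averaged over 14 hair shaft keratins, it was −0.01 and 4.79 on the DMBA-treated arrays, against 3.57 on the contradicted array and 1.99 on the untreated CD109-/- replicate 2. The 4 arrays with a high Cd109 signal ranged from −5.09 to −4.72. The Cd109 limit thus also separated arrays with hair gene signal from arrays without it, and the DMBA-treated replicate 1 stood below the other 3 arrays of its set.

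Across the whole array, few probes passed. A probe was tested when both DMBA-treated or both untreated arrays had it well above background. Of 35456 such probes, 6 passed an adjusted p of 0.05 (limma, Benjamini-Hochberg over all probes), a background of 0.0169% of the probes tested. Of these, 3 were higher (0.00846%) and 3 were lower (0.00846%) in DMBA-treated skin. Apart from that of Cyp7b1, described below, each passing probe was well above background in only 1 group. Such a probe was tested through the group where it was high, so the filter fixed its direction. Among probes well above background on all 4 arrays, no probe passed. At an unadjusted p under 0.05 there were 6423 probes, 4754 higher (13.4%) and 1669 lower (4.71%), and 365 probes had an adjusted p under 0.10. Without the contradicted array, no probe passed in limma (3464 higher and 934 lower at an unadjusted p under 0.05). The split between higher and lower probes moved with the scaling: it was 3 and 5 after quantile normalization, 1 and 3 after median centring, and 3553 and 237 after normexp background correction. Only the main setting is used for the calls below. The probes represented 16353 named genes, of which 4 passed (0.0245%), while 22.7% had both DMBA-treated arrays above both untreated arrays and 21.6% had both below. The median log2 fold change of all genes was −0.0083, and 48.9% of them had a positive fold change. Scatter was taken over the 15608 genes well above background on all 4 arrays, which leaves out the dimmest genes. Among them the median absolute difference between the DMBA-treated arrays was 0.293 (log2), against 0.147 between the untreated arrays. Their median absolute fold change, which sets means of 2 arrays against each other, was 0.203 (log2).

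The direction of the change depended on how bright a probe was. The 243 probes with a mean signal below −6 had a median log2 fold change of 1.73, and the 7361 probes between −6 and −4 had a median of 0.381. Between −4 and −2 the median was 0.151, and it was 0.0156 between −2 and 0. In the 3 brighter classes, from 0 upward, it was −0.046, −0.0327 and −0.0063. The 75th percentile of intensity, to which each array was scaled, was 455 and 382 on the DMBA-treated arrays, against 608 and 583 on the untreated arrays. The part of this brightness pattern in the fold change of a dim gene was not tested.

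**Figure D1:**
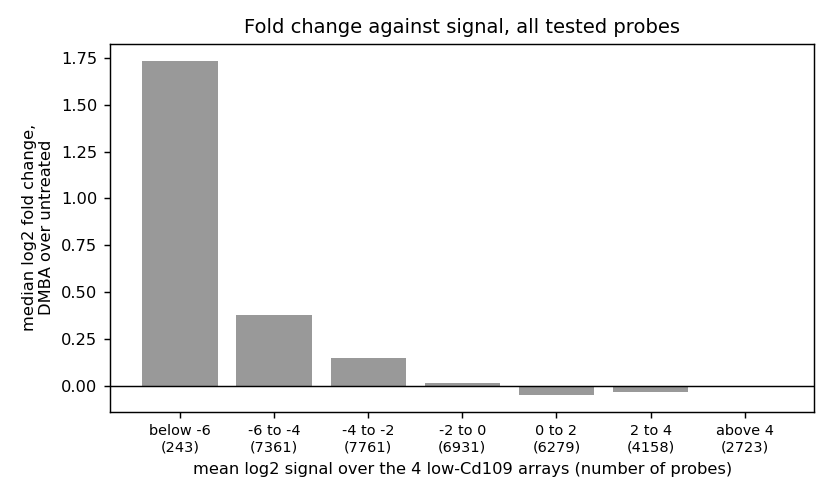
The log2 fold change of DMBA-treated over untreated skin is plotted for the tested probes in 7 classes of mean signal. Medians lie above 0 in the dim classes (1.73 below −6, 0.381 from −6 to −4) and within 0.05 of 0 from a signal of −2 upward.

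The gene that rose with DMBA at the threshold was Cyp7b1, which encodes oxysterol 7-alpha-hydroxylase, a cytochrome P450 that hydroxylates oxysterols and steroids. Its signal was 1.32 and 1.41 in DMBA-treated skin, against −0.44 and −0.39 in untreated skin. The means were 1.37 ± 0.064 in DMBA-treated skin and −0.42 ± 0.036 in untreated skin (SD, 2 arrays each), a 3.45-fold rise (log2 fold change 1.79, SE 0.12, limma adjusted p = 0.0453). Without the contradicted array the log2 fold change was 1.76, with an adjusted p of 0.117. On the arrays with a high Cd109 signal the gene had 2.83 and 2.69 in DMBA-treated skin, against 0.39 and 0.54 in untreated skin (log2 fold change 2.30, adjusted p = 0.00801). The difference between both responses was −0.51 (SE 0.18) and did not pass the test (adjusted p = 0.186).

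Both other probes that rose have no gene name here. Probe A_51_P247168 had −2.73 and −3.55 in DMBA-treated skin, against −8.02 and −8.24 in untreated skin, where it was not well above background. It was at least 7.08-fold higher, taking for the untreated arrays the lowest signal that was still well above background. Probe A_30_P01022557, placed by the array design at chr13:24615451-24615973 of mm9, had −5.07 and −4.59 in DMBA-treated skin, against −7.77 and −7.93 in untreated skin, and was at least 2.2-fold higher on the same basis. The adjusted p was 0.0453 for both, and without the contradicted array it was 0.112 for A_51_P247168 and 0.0987 for A_30_P01022557. Bounds of this kind are also given below for genes that were not well above background on any array of 1 group.

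The 3 genes that fell were dim. The olfactory receptor gene Olfr117 had −7.93 and −7.61 in DMBA-treated skin, against −3.81 and −4.11 in untreated skin, at least a 3.43-fold fall (adjusted p = 0.0101). For Vmn2r26, a vomeronasal pheromone receptor gene, the signals were −8.04 and −7.68 in DMBA-treated skin and −4.15 and −4.16 in untreated skin, at least 3.0-fold lower (adjusted p = 0.0101). The third, 9230009I02Rik, had −7.65 and −7.59 in DMBA-treated skin, against −5.48 and −5.24 in untreated skin, at least 1.30-fold lower (adjusted p = 0.0453). None of the 3 was well above background on a DMBA-treated array, and their signals in untreated skin were also low. They were tested through the untreated arrays alone. Over the other scalings, background corrections, filters and models, the log2 fold change ranged from −4.09 to −0.11 for Olfr117. It ranged from −3.98 to −0.04 for Vmn2r26 and from −2.58 to 0.21 for 9230009I02Rik. The bounds given here therefore hold for the main setting only. Without the contradicted array, none of them passed (adjusted p = 0.0634 for both receptors). Of 1320 olfactory and vomeronasal receptor genes on the array, 176 were bright enough to be tested. Most of their signals lay in the dim classes described above, and both receptors named here were the ones that passed (0.0245% of all genes). Of the tested members, 130 had a positive and 46 a negative fold change. Members well above background in only 1 group, such as Olfr1097 and Olfr819 under DMBA, were tested through that group. The filter thus largely set their direction, and the counts of this list give no direction for it. The median of the list was 0.34 (0.43 without the contradicted array). With no overlap, 81 were higher and 16 lower (22.7% and 21.6% of all genes). At an unadjusted p under 0.05, 47 were higher and 5 lower (8.31% and 5.64% of all genes).

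The Ah receptor pathway, in which DMBA is a ligand, did not move in 1 direction. Of 16 tested members none passed in limma, 2 were higher and 2 lower at an unadjusted p under 0.05, against 8.31% and 5.64% of all genes, and the median log2 fold change was −0.08 (−0.01 without the contradicted array, 0.06 after normexp and 0.22 without the DMBA-treated replicate 2). Cyp1a1, the Cyp1 enzyme that is classically induced by Ah receptor ligands, had 2.50 and 1.56 in DMBA-treated skin, against 1.48 and 1.1 in untreated skin (log2 fold change 0.74, SE 0.35, adjusted p = 0.329). Both DMBA-treated arrays lay above both untreated arrays, but the lower of them exceeded the higher untreated array by a small margin. Cyp1b1, the enzyme that activates DMBA in extrahepatic tissue, had 0.78 and 0.72 in DMBA-treated skin, against 1.54 and 1.55 in untreated skin (log2 fold change −0.79, SE 0.17, adjusted p = 0.121). Its replicates were close and the groups did not overlap, with the lower values under DMBA. The third member of the family, Cyp1a2, was not well above background on any of the 4 arrays.

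The promoters of both Cyp1 genes are printed because the Ah receptor and Arnt bind a core motif, GCGTG or CACGC by strand, in genes of this family. Each sequence runs 5′ to 3′ over 300 bases, most of them upstream of the transcription start (RefSeq, GRCm38.p6), and the capitals mark the core motif on either strand.
Cyp1a1, chr9:57697363-57697662, plus strand: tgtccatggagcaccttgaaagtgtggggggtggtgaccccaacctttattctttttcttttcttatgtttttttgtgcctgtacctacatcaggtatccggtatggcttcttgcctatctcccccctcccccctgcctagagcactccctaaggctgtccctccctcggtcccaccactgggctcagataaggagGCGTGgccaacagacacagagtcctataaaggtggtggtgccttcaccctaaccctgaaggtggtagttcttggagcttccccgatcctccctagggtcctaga
Cyp1b1, chr17:79715012-79715311, minus strand: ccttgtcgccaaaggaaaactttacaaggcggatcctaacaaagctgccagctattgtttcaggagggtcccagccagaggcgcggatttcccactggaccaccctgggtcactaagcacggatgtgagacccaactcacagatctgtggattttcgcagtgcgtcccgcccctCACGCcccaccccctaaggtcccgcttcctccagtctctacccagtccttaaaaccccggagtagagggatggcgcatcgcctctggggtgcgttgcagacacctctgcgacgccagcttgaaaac
The motif began 54 bases upstream of the start in Cyp1a1 and 76 bases upstream in Cyp1b1. It was present in 10639 of 32851 mouse promoter windows of this length (32.4%), and in 6 of the 12 Ah receptor pathway genes with a window, so a match describes the sequence and is no evidence of binding.

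The remaining pathway members also differed in direction. Ugt1a6a, a glucuronosyltransferase, had −3.04 and −2.37 in DMBA-treated skin, against −4.19 and −3.55 in untreated skin (log2 fold change 1.16, adjusted p = 0.186). Aldh3a1, an aldehyde dehydrogenase of barrier epithelia, had 4.39 and 3.35 in DMBA-treated skin and 3.23 and 2.93 in untreated skin (0.79, adjusted p = 0.356). Fmo2, a flavin monooxygenase, had −0.96 and −1.31 under DMBA, against −0.49 and −0.15 in untreated skin (log2 fold change −0.81, adjusted p = 0.144). The groups of all 3 genes were apart. Those of Ahrr, the repressor of the receptor, were not, with −1.07 and −2.03 in DMBA-treated skin, against −1.39 and −1.52 in untreated skin.

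Targets of p53 were mostly higher with DMBA, although none passed in limma. Of 35 tested targets, 27 had a positive fold change, 18 had both DMBA-treated arrays above both untreated arrays and 1 had both below (22.7% and 21.6% of all genes). At an unadjusted p under 0.05, 11 were higher and 1 was lower (8.31% and 5.64% of all genes). The median log2 fold change was 0.34, against −0.0083 for all genes, 0.30 without the contradicted array, 0.27 to 0.32 when any 1 of the 4 arrays was left out, and 0.13 after median centring. Pmaip1, which encodes the pro-apoptotic protein Noxa, had 1.03 and 0.94 in DMBA-treated skin, against 0.20 and 0.19 in untreated skin (log2 fold change 0.79, adjusted p = 0.107). For Tnfrsf10b, a death receptor, the signals were 0.22 and 0.42 under DMBA and −0.40 and −0.29 in untreated skin (0.66, adjusted p = 0.132). Both genes had close replicates and groups that were well apart. Polk, the translesion polymerase kappa that can copy past bulky adducts, had −1.81 and −1.79 in DMBA-treated skin, against −2.92 and −2.61 in untreated skin (log2 fold change 0.97, SE 0.16, adjusted p = 0.101).

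Smaller differences were seen in brighter targets. Mdm2, the ubiquitin ligase that degrades p53, had 3.46 and 3.68 in DMBA-treated skin, against 3.19 and 3.24 in untreated skin (log2 fold change 0.36, adjusted p = 0.239). The apoptosis effector Bax had 3.26 and 3.11 in DMBA-treated skin and 2.78 and 2.92 in untreated skin (0.34, adjusted p = 0.237). The member that was lower at an unadjusted p under 0.05 was Xpc, the damage sensor of nucleotide excision repair, with 0.38 and 0.41 in DMBA-treated skin, against 0.75 and 0.71 in untreated skin (log2 fold change −0.34, adjusted p = 0.209). Cdkn1a, which encodes the cell cycle inhibitor p21, was measured by 2 probes that disagreed. Its brighter probe had 2.87 and 3.15 in DMBA-treated skin, against 3.15 and 2.82 in untreated skin (log2 fold change 0.02, −0.18 after median centring and −0.024 after normexp), while its dimmer probe had −2.46 and −3.66 in DMBA-treated skin, against −5.19 and −4.90 in untreated skin (1.98, adjusted p = 0.121). Proliferation genes showed no such displacement, with a median log2 fold change of −0.01 over 34 genes (−0.05 without the contradicted array). Among them, 6 were higher and 6 lower with no overlap (22.7% and 21.6% of all genes). None passed, and 1 was higher and 0 lower at an unadjusted p under 0.05 (8.31% and 5.64% of all genes).

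Among Nrf2 targets, the 3 largest fold changes belonged to aldo-keto reductases of the Akr1c group. Of 39 tested targets none passed, 26 had a positive fold change, 14 were higher and 2 lower with no overlap (22.7% and 21.6% of all genes), and 5 were higher and 1 lower at an unadjusted p under 0.05 (8.31% and 5.64% of all genes). The median log2 fold change was 0.12, 0.17 without the contradicted array, and −0.09 after median centring, a setting that lowers every fold change by the same amount. Akr1c19 had −2.67 and −3.71 in DMBA-treated skin, against −7.89 on the contradicted array and −5.36 on the untreated CD109-/- replicate 2 (log2 fold change 3.43, SE 1.07, adjusted p = 0.199; 2.16 without the contradicted array), and was well above background on 1 of both untreated arrays. On the high-Cd109 arrays its order was the opposite, with −8.23 and −6.34 in DMBA-treated skin, against −3.87 and −2.30 in untreated skin (log2 fold change −4.20), and the difference between both responses, 7.63 (SE 1.52), did not pass (adjusted p = 0.101). Akr1c18, which reduces progesterone to an inactive metabolite, had 5.19 and 3.65 in DMBA-treated skin, against 2.12 and 1.96 in untreated skin (log2 fold change 2.37, SE 0.60, adjusted p = 0.149). Akr1c14, a 3-alpha-hydroxysteroid dehydrogenase, had 1.43 and −0.23 under DMBA and −1.56 and −0.93 in untreated skin (1.84, adjusted p = 0.201). In Akr1c18, Akr1c14 and Akr1c19 replicate 1 was the higher DMBA-treated array by more than 1 on the log2 scale. Me1, the malic enzyme that supplies NADPH, had 5.08 and 4.59 in DMBA-treated skin, against 4.22 and 4.08 in untreated skin (log2 fold change 0.68, adjusted p = 0.194). Gstm1, a glutathione transferase, had the opposite order with 3.18 and 2.59 in DMBA-treated skin, against 3.53 and 3.54 in untreated skin (log2 fold change −0.65, adjusted p = 0.227). Nfe2l2, which encodes Nrf2 itself, had 2.75 and 2.63 in DMBA-treated skin, against 2.86 and 2.75 in untreated skin.

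**Figure D2:**
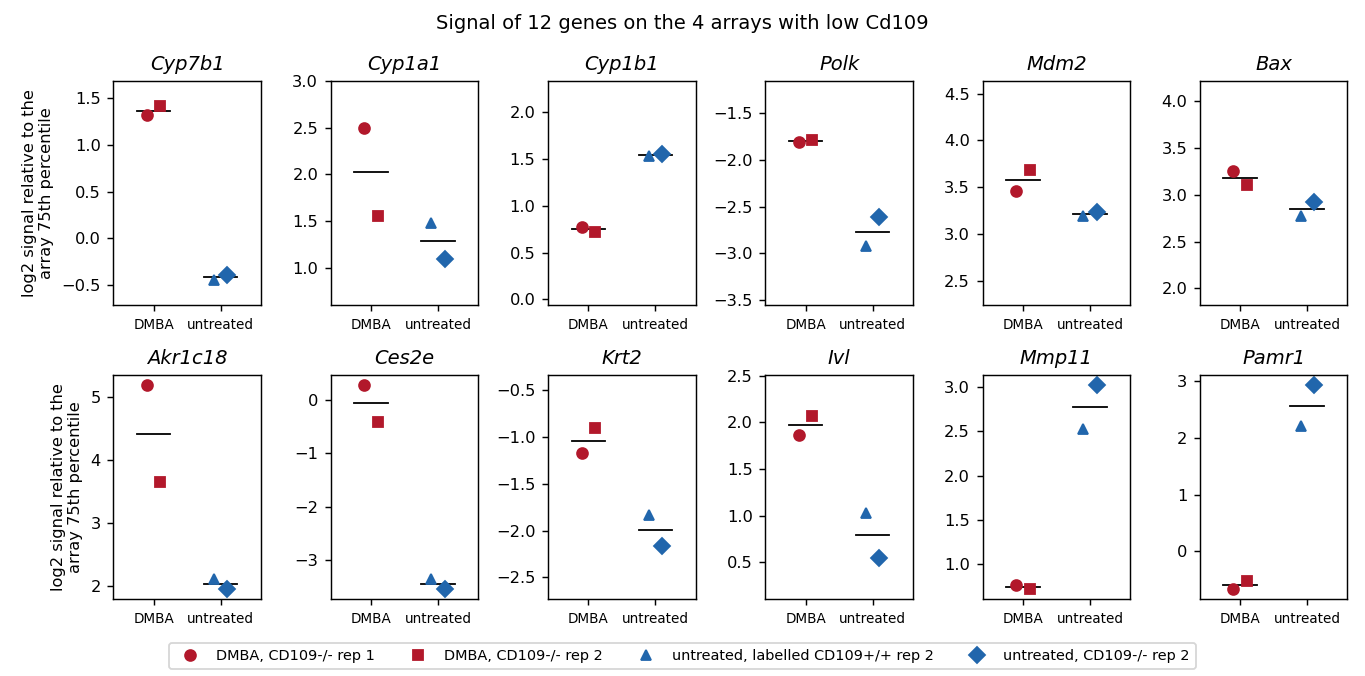
Log2 signal relative to the 75th percentile is plotted per array for named genes, with DMBA-treated arrays left of untreated arrays. Cyp7b1 has 1.32 and 1.41 under DMBA, against −0.44 and −0.39 in untreated skin, whereas Cyp1b1 has 0.78 and 0.72, against 1.54 and 1.55.

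The list furthest displaced toward higher values held the proteases and protease inhibitors of the upper epidermis, which control shedding of the cornified layer. Of 27 tested members 26 had a positive fold change, 21 were higher with no overlap and none was lower, against 22.7% and 21.6% of all genes. None passed in limma, and 10 were higher and 0 lower at an unadjusted p under 0.05 (8.31% and 5.64% of all genes). The median log2 fold change was 0.92, 0.98 without the contradicted array, 0.50 without the DMBA-treated replicate 1 and 1.45 without the DMBA-treated replicate 2. The mean signal of the list was 1.73 and 0.89 in DMBA-treated skin, against 0.53 and 0.09 in untreated skin. Stfa3, a cysteine protease inhibitor (stefin), had 7.08 and 6.27 in DMBA-treated skin, against 5.64 and 5.12 in untreated skin (log2 fold change 1.29, adjusted p = 0.154). Klk7, a kallikrein that cleaves corneodesmosomes, had 4.11 and 3.66 in DMBA-treated skin and 3.43 and 3.05 in untreated skin (0.64, adjusted p = 0.255). Serpinb3a, a serpin of squamous epithelia, had 1.83 and −0.35 in DMBA-treated skin, against −0.80 and −1.42 in untreated skin (1.85, adjusted p = 0.243). Further members were dim in untreated skin. The membrane protease gene Tmprss11a had −3.89 and −3.94 in DMBA-treated skin, against −6.39 and −7.72 in untreated skin, at least 4.13-fold higher (adjusted p = 0.095).

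Genes of the cornified envelope, the crosslinked protein shell of the outermost keratinocytes, lay in the same direction. Of 49 tested members 42 had a positive fold change, 25 were higher and 1 lower with no overlap (22.7% and 21.6% of all genes), and the median log2 fold change was 0.72 (0.93 without the contradicted array, 0.25 without the DMBA-treated replicate 1 and 1.16 without the DMBA-treated replicate 2). At an unadjusted p under 0.05, 6 were higher and 1 was lower (8.31% and 5.64% of all genes), and none passed. Casp14, the caspase of terminal keratinocyte differentiation, had 3.87 and 3.73 in DMBA-treated skin, against 2.95 and 2.11 in untreated skin (log2 fold change 1.27, adjusted p = 0.175). Ivl, the gene of the envelope protein involucrin, had 1.87 and 2.06 under DMBA and 1.03 and 0.55 in untreated skin (1.17, adjusted p = 0.187). In both genes the untreated CD109-/- replicate 2 was the lowest of the 4 arrays. Krt2, a keratin of suprabasal epidermis, had −1.17 and −0.91 in DMBA-treated skin, against −1.84 and −2.16 in untreated skin (log2 fold change 0.96, SE 0.17, adjusted p = 0.106). Of the 17 epidermal and activation keratins, 13 had a positive fold change, with a median of 0.41 (0.52 without the contradicted array, 0.14 without the DMBA-treated replicate 1). Among these keratins, 6 were higher and 2 lower with no overlap (22.7% and 21.6% of all genes). None passed, and 1 was higher and 0 lower at an unadjusted p under 0.05 (8.31% and 5.64% of all genes). Sebaceous gland genes were positive in 17 of 18 members with a median of 0.45 (0.60 without the contradicted array, 0.10 without the DMBA-treated replicate 1 and 1.00 without replicate 2). With no overlap, 5 were higher and 0 lower (22.7% and 21.6% of all genes). At an unadjusted p under 0.05, 1 was higher and 0 lower (8.31% and 5.64% of all genes), and none passed. Their mean signal was 3.90 and 3.14 in DMBA-treated skin, against 3.20 and 2.85 in untreated skin. The groups thus overlapped at the level of the list. Elovl4, which elongates very long chain fatty acids of the barrier, had 7.42 and 6.48 in DMBA-treated skin, against 6.24 and 6.01 in untreated skin (log2 fold change 0.83, adjusted p = 0.249).

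**Figure D3:**
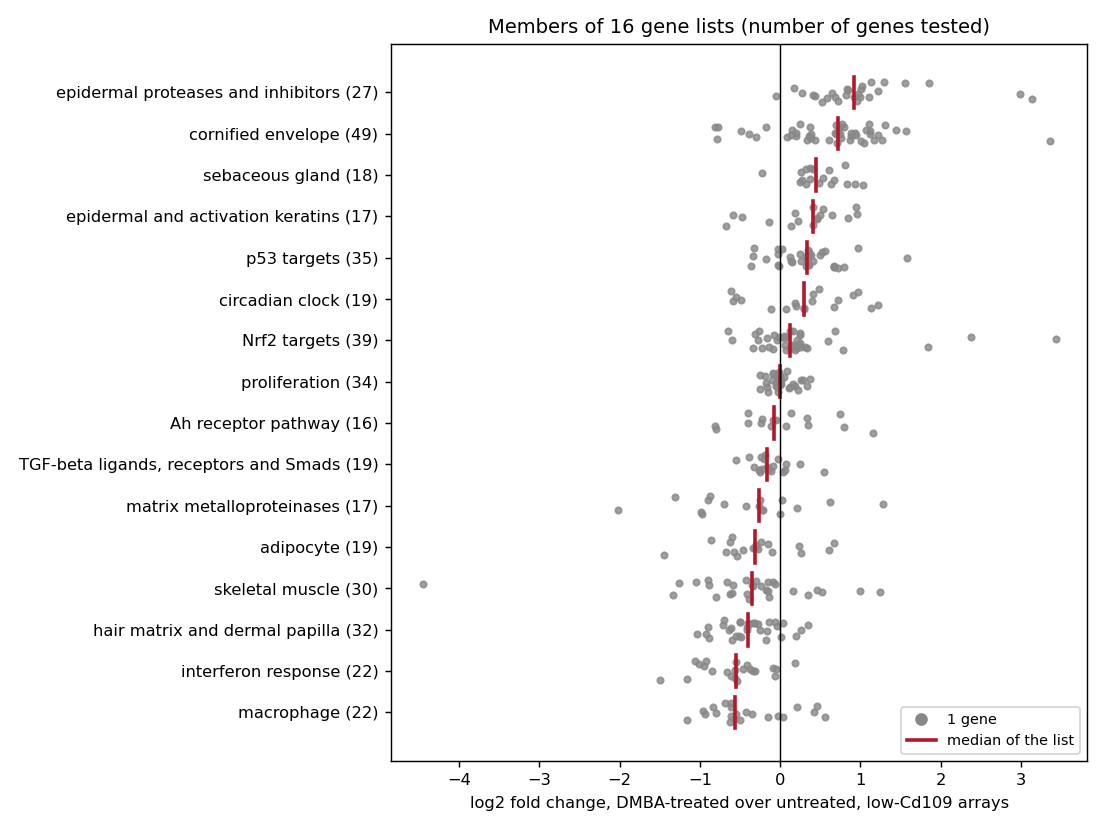
Each row is a gene list. Points give the log2 fold change of its tested genes (DMBA-treated over untreated) and the bar their median, which is 0.92 for epidermal proteases and inhibitors, 0.34 for p53 targets and −0.56 for the interferon response.

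Genes of the circadian clock, the oscillator that most cells carry, were mostly higher in value with DMBA, although none passed. Of 19 tested clock genes 14 had a positive fold change, 9 were higher and 1 lower with no overlap (22.7% and 21.6% of all genes), and 7 were higher and 1 lower at an unadjusted p under 0.05 (8.31% and 5.64% of all genes). The median log2 fold change was 0.30 (0.27 without the contradicted array, 0.09 after median centring and 0.56 without the DMBA-treated replicate 2). Hlf, a transcription factor of the clock output, had 0.65 and 0.40 in DMBA-treated skin, against −0.69 and −0.68 in untreated skin (log2 fold change 1.21, SE 0.15, adjusted p = 0.0805). Per3 had −1.57 and −1.82 in DMBA-treated skin, against −3.08 and −2.57 in untreated skin (1.13, adjusted p = 0.106). Per2 had −1.88 and −2.24 under DMBA and −2.97 and −3.09 in untreated skin (0.97, adjusted p = 0.107). The period proteins encoded by these genes repress the activators Clock and Arntl. Arntl had the opposite order, with −0.47 and −0.35 in DMBA-treated skin, against 0.21 and 0.06 in untreated skin (log2 fold change −0.55, adjusted p = 0.222). Ciart, another repressor of the loop, had −1.46 and −1.96 in DMBA-treated skin, against −2.61 and −2.62 in untreated skin (0.91, adjusted p = 0.166). The hour at which skin was taken is not given in the sources used here, and clock phase and treatment cannot be told apart.

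The response of Hlf was in the opposite direction on the arrays with a high Cd109 signal, where it had −0.83 and −0.58 in DMBA-treated skin, against 0.77 and 0.89 in untreated skin (log2 fold change −1.53). The difference between both responses was 2.74 and passed the test (adjusted p = 0.0478). For Per3 the difference was 1.84 and did not pass (adjusted p = 0.079).

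The promoter of Ciart is shown because Clock and Arntl bind the E-box CACGTG, which reads the same on both strands. The window, its source and its orientation are as for the Cyp1 genes, and the capitals mark E-boxes.
Ciart, chr3:95882179-95882478, minus strand: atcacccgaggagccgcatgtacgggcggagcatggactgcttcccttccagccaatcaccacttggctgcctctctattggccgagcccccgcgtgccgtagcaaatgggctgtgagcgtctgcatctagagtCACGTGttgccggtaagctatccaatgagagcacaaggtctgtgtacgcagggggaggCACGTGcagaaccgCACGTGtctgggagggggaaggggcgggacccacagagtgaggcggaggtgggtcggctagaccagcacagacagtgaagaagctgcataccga
It held 3 E-boxes, which began 116, 58 and 44 bases upstream of the start. An E-box was found in 2349 of 32851 promoter windows (7.15%) and in 5 of the 16 clock genes with a window.

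**Figure D4:**
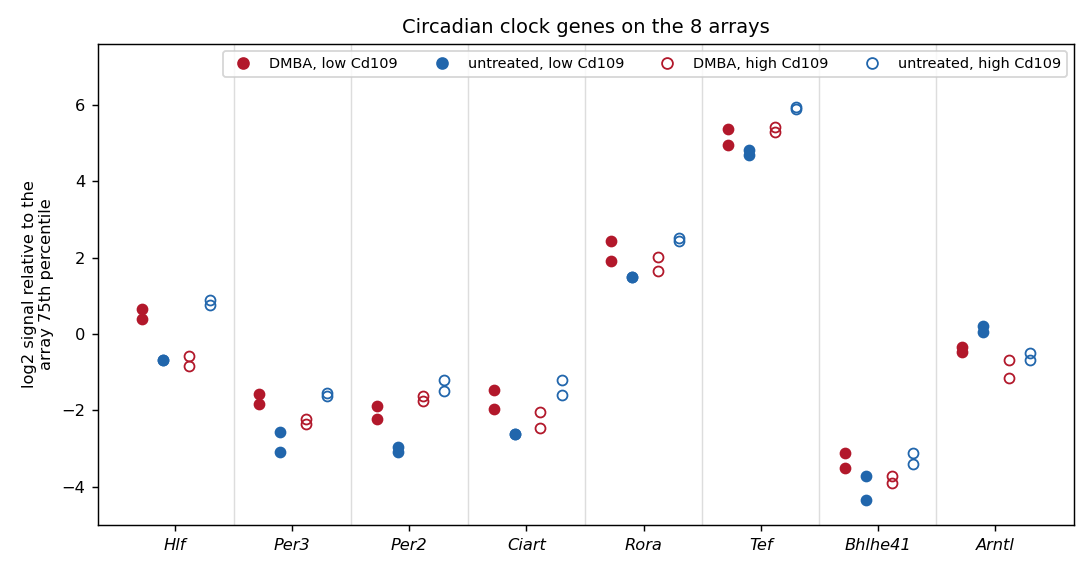
Log2 signal of clock genes on all 8 arrays, for the arrays with low and with high Cd109 signal. Hlf lies higher under DMBA in the first set (0.65 and 0.40, against −0.69 and −0.68) and lower under DMBA in the second (−0.83 and −0.58, against 0.77 and 0.89).

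Interferon-induced genes were lower in DMBA-treated skin in 21 of 22 tested members, 12 of them with no overlap (21.6% of all genes), although none passed and 2 reached an unadjusted p under 0.05 (5.64% of all genes). Their median log2 fold change was −0.56, which was −0.67 without the contradicted array, −1.02 without the DMBA-treated replicate 1 and −0.12 without the DMBA-treated replicate 2. The mean signal of the list was −0.11 and −1.21 in DMBA-treated skin, against −0.23 and 0.08 in untreated skin. The groups thus overlapped at the level of the list. Rsad2, an antiviral enzyme gene, had −2.35 and −3.56 in DMBA-treated skin, against −1.73 and −1.18 in untreated skin (−1.50, adjusted p = 0.200). The chemokine gene Cxcl10 had −0.31 and −1.25 in DMBA-treated skin and 0.29 and −0.01 in untreated skin (−0.92, adjusted p = 0.246). Replicate 2 was the lower DMBA-treated array for both.

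Macrophage genes were negative in 17 of 22 members, with a median of −0.57 (−0.76 without the contradicted array, −0.96 without the DMBA-treated replicate 1 and −0.10 without replicate 2). Of the 22, 1 was higher and 7 were lower with no overlap (22.7% and 21.6% of all genes). At an unadjusted p under 0.05, 1 was higher and 3 were lower (8.31% and 5.64% of all genes), and none passed. Marco, a scavenger receptor, had −0.81 and −0.93 in DMBA-treated skin, against 0.21 and −0.09 in untreated skin (log2 fold change −0.93, adjusted p = 0.154). Csf1r, the receptor that maintains macrophages, had 5.27 and 4.76 in DMBA-treated skin, against 5.56 and 6.14 in untreated skin (−0.84, adjusted p = 0.234). The integrin gene Itgam was in the opposite order with 3.51 and 4.02 under DMBA, against 3.16 and 3.24 in untreated skin (0.56, adjusted p = 0.260). The mean signal of the list was 1.54 and 0.91 in DMBA-treated skin, against 1.46 and 1.79 in untreated skin, so the groups overlapped at the level of the list. In whole skin, fewer cells of a type and less RNA per cell cannot be told apart, which holds for every marker list here.

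Among inflammatory mediators the directions were mixed. Lif, a cytokine of the interleukin-6 family, had −2.98 and −2.01 in DMBA-treated skin, against −5.11 and −4.27 in untreated skin (log2 fold change 2.2, adjusted p = 0.113). Il20, a keratinocyte-activating cytokine, had −5.70 and −6.51 in DMBA-treated skin, against −3.46 and −3.69 in untreated skin (−2.53, adjusted p = 0.109), and was well above background on 1 DMBA-treated array. Il1b, the gene of interleukin-1 beta, had −1.17 and −1.76 in DMBA-treated skin, against −0.56 and −0.67 in untreated skin (−0.85, adjusted p = 0.209). The groups of these 3 genes did not overlap. On the high-Cd109 arrays Il1b had 3.28 and 2.84 in DMBA-treated skin, against −0.32 and 0.14 in untreated skin, and the difference between both responses was −4.0 (adjusted p = 0.062). Mmp8, the collagenase of neutrophils, had −3.66 and −4.0 in DMBA-treated skin, against −5.06 and −5.16 in untreated skin (log2 fold change 1.28, adjusted p = 0.112). It had the highest fold change of 15 tested neutrophil genes, of which 7 were positive and 8 negative (median −0.03, 0.24 without the contradicted array). Of these 15 genes, 4 were higher and 3 lower with no overlap (22.7% and 21.6% of all genes). None passed, and 2 were higher and 0 lower at an unadjusted p under 0.05 (8.31% and 5.64% of all genes). Tgfb1, the gene of transforming growth factor beta 1, had −0.59 and −1.12 in DMBA-treated skin, against −0.41 and −0.21 in untreated skin (−0.55, adjusted p = 0.278). Of 19 genes of its ligands, receptors and Smads, 14 had a negative fold change (median −0.17, −0.084 without the contradicted array and −0.38 after median centring). With no overlap, 0 were higher and 6 lower (22.7% and 21.6% of all genes). At an unadjusted p under 0.05, 0 were higher and 0 lower (8.31% and 5.64% of all genes).

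The hair gene lists had a negative median, but the arrays overlapped. The 50 keratin-associated protein genes had a mean signal of −1.48 and 5.15 in DMBA-treated skin, against 3.71 and 1.45 in untreated skin. The DMBA-treated arrays were thus the lowest and the highest of the 4, and none of the 50 genes had groups apart. Their median log2 fold change was −0.78, and 0.45 without the contradicted array, 2.65 without the DMBA-treated replicate 1 and −4.24 without the DMBA-treated replicate 2. The hair shaft keratins behaved likewise, with a median of −0.42, which became 0.55, 2.22 and −3.10 without the same arrays. The inner root sheath, the layer that moulds the growing hair, had a mean signal of 2.66 and 5.07 in DMBA-treated skin, against 4.83 and 4.22 in untreated skin, and a median of −0.64 (−0.38 without the contradicted array, 0.51 without the DMBA-treated replicate 1).

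Genes of the hair matrix and dermal papilla, the growing base of the follicle, were less scattered. Their mean signal was −0.18 and 0.55 in DMBA-treated skin, against 0.63 and 0.50 in untreated skin, so the groups overlapped at the level of the list. Of 32 tested members 27 had a negative fold change, 12 were lower and 0 higher with no overlap (21.6% and 22.7% of all genes), and 7 were lower and 0 higher at an unadjusted p under 0.05 (5.64% and 8.31% of all genes), with a median of −0.40 (−0.34 without the contradicted array, 0.07 without the DMBA-treated replicate 1, −0.69 without replicate 2), and none passed. Prom1, a marker of dermal papilla and progenitor cells, had −0.81 and −1.03 in DMBA-treated skin, against 0.14 and 0.11 in untreated skin (log2 fold change −1.04, adjusted p = 0.110). Shh, the hedgehog ligand of the growing follicle, had −1.75 and −1.90 under DMBA and −1.23 and −1.01 in untreated skin (−0.70, SE 0.14, adjusted p = 0.113). In both genes the groups were apart and the replicates close. Msx1, a homeobox gene of the matrix, had −0.28 and 0.59 in DMBA-treated skin, against 1.00 and 1.17 in untreated skin (−0.93, adjusted p = 0.193). With the mean hair signal of each array as a covariate, 6 probes of the whole array passed, 2 higher and 4 lower; its part in each list was not tested.

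**Figure D5:**
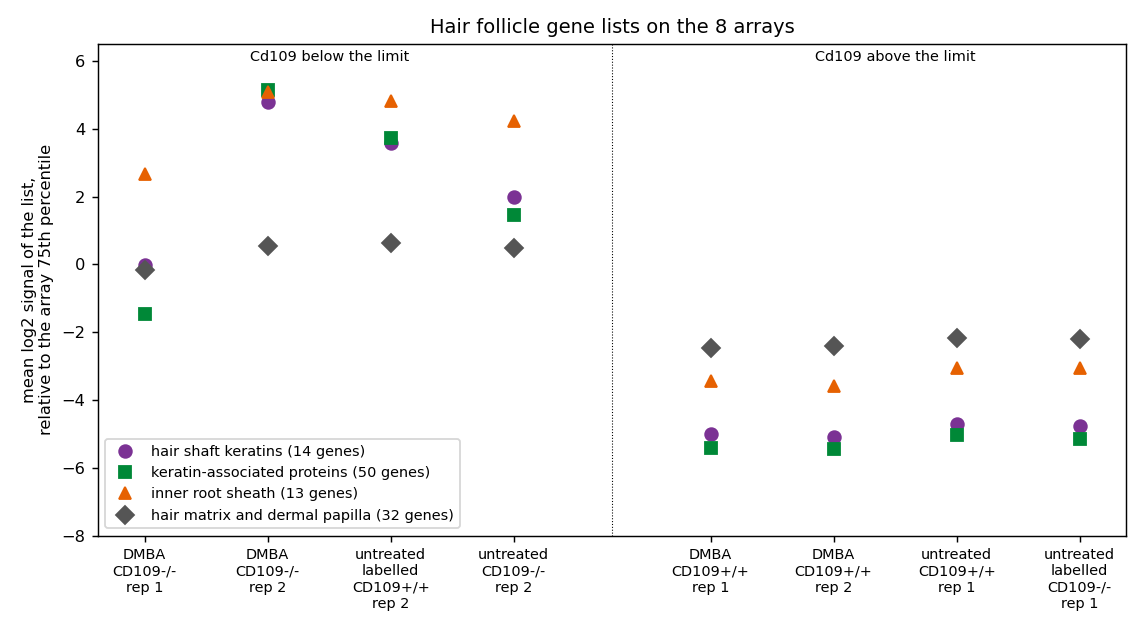
Mean log2 signal of hair gene lists per array, DMBA-treated left of untreated. For keratin-associated proteins the DMBA-treated arrays are the lowest and the highest of the low-Cd109 set (−1.48 and 5.15, against 3.71 and 1.45).

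Of 17 tested matrix metalloproteinase genes, whose products cleave collagen and other matrix proteins, 13 had a negative fold change. Among them, 3 were higher and 8 lower with no overlap (22.7% and 21.6% of all genes). Mmp11, a stromal metalloproteinase, had 0.77 and 0.72 in DMBA-treated skin, against 2.53 and 3.02 in untreated skin (log2 fold change −2.02, SE 0.23, adjusted p = 0.072). Mmp14, the membrane-bound collagenase, had 0.79 and 0.52 in DMBA-treated skin and 1.40 and 1.66 in untreated skin (−0.88, adjusted p = 0.105). Neither passed, and of 17 tested members 1 was higher and 4 were lower at an unadjusted p under 0.05 (8.31% and 5.64% of all genes), with a median of −0.26 (−0.56 without the contradicted array, −0.08 after normexp, −0.53 after quantile normalization, −0.53 without the DMBA-treated replicate 1). Skeletal muscle genes had a median of −0.34 (−0.33 without the contradicted array, −0.70 without the DMBA-treated replicate 1, 0.05 without the DMBA-treated replicate 2) with 24 of 30 negative. With no overlap, however, only 3 were higher and 4 lower (22.7% and 21.6% of all genes). At an unadjusted p under 0.05, 2 were higher and 3 lower (8.31% and 5.64% of all genes). None passed, and the myosins among them diverged. Myh4, the fast myosin of type IIb fibres, had 2.65 and −0.12 in DMBA-treated skin, against 5.26 and 6.18 in untreated skin (log2 fold change −4.45, adjusted p = 0.113). Myh2, the myosin of type IIa fibres, had 4.51 and 5.66 in DMBA-treated skin, against 4.11 and 3.57 in untreated skin (1.25, adjusted p = 0.219). Adipocyte genes were negative in 15 of 19 members, with a median of −0.31 (−0.30 without the contradicted array, −0.71 without the DMBA-treated replicate 1, −0.05 without the DMBA-treated replicate 2). With no overlap, 2 were higher and 11 lower (22.7% and 21.6% of all genes). At an unadjusted p under 0.05, 1 was higher and 2 were lower (8.31% and 5.64% of all genes), and none passed. Their mean signal was 3.23 and 2.59 in DMBA-treated skin, against 3.24 and 3.19 in untreated skin. The groups thus overlapped at the level of the list. Pnpla2, the lipase that starts triglyceride breakdown, had 3.60 and 3.13 in DMBA-treated skin, against 4.27 and 4.18 in untreated skin (−0.86, adjusted p = 0.122). The 12 reference genes had a median of −0.04.

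Some of the largest fold changes among genes well above background on all 4 arrays belonged to genes outside these lists, none of which passed. Ces2e, a carboxylesterase, had 0.28 and −0.41 in DMBA-treated skin, against −3.36 and −3.54 in untreated skin (log2 fold change 3.39, SE 0.27, adjusted p = 0.0675), and a log2 fold change of 3.17 on the high-Cd109 arrays. Ptpn5, a tyrosine phosphatase, had −0.16 and −0.97 in DMBA-treated skin and −4.14 and −3.93 in untreated skin (3.47, SE 0.32, adjusted p = 0.0675). Saa3, an acute phase protein gene, had 0.62 and 3.05 in DMBA-treated skin, against −1.33 and −0.77 in untreated skin (2.89), and a log2 fold change of 7.40 on the high-Cd109 arrays. In these 3 genes both DMBA-treated arrays lay above both untreated arrays by more than 1 on the log2 scale. Xist, the RNA that silences 1 X chromosome in females, had 0.82 and 1.07 in DMBA-treated skin, against −1.0 and −0.63 in untreated skin (1.76, adjusted p = 0.0694), and its second probe had a log2 fold change of 1.53. Among genes with lower values, Inmt, a methyltransferase of indoles, had −2.31 and −3.04 in DMBA-treated skin, against 1.58 and 3.22 in untreated skin (−5.08, adjusted p = 0.0947). Pamr1, a secreted peptidase-like protein gene, had −0.66 and −0.52 under DMBA, against 2.21 and 2.93 in untreated skin (−3.16, SE 0.28, adjusted p = 0.0675).

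The same contrast on the arrays with a high Cd109 signal called more probes, 1280 of 35456 (3.61%), against 6 (0.0169%) here. The difference between both responses passed for 11 probes (0.031%). Among these was Hlf, described above. The activation keratin Krt16, which is induced in stressed epidermis, had 5.01 and 4.66 in DMBA-treated skin, against 4.42 and 4.18 in untreated skin, and on the high-Cd109 arrays 8.18 and 8.04 in DMBA-treated skin, against 4.96 and 3.27 in untreated skin. That difference of −3.46 did not pass (adjusted p = 0.105). As the high-Cd109 arrays lacked hair gene signal, Cd109 level and hair gene signal cannot be told apart in this comparison.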

How the data were processed

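Total RNA of skin was hybridised to 1-colour Agilent mouse arrays, which were read with Feature Extraction 11.5.1.1. The deposited intensity of each spot (gProcessedSignal) is background-subtracted and spatially detrended by that software, and no depth applies to arrays. Here, log2 of the intensity minus log2 of the 75th percentile of each array was used, after control spots and 223 probes flagged as outliers were left out, which kept 55458 probes. Spots of 1 probe were averaged. Of 29684 probes with a RefSeq accession, 27922 were named (94.1%), giving 21095 genes, and a gene was represented by its tested probe with the highest mean. The value table the authors deposited holds the same linear intensity multiplied by 1 constant for each array, and served as an alternative. Treatment was taken from the labels, and Cd109 only chose the arrays. A limma 3.58.1 model (R 4.3.3) with 1 mean for each combination of Cd109 level and treatment was fitted to all 8 arrays, and its p-values were adjusted over all tested probes by Benjamini-Hochberg. Scripts were tested on simulated data. The members and gene lists were chosen with earlier results of these data known. The genes named are those that passed, list members of smallest p, the largest and most significant changes among genes well above background, and a set of fixed pathway genes; others are marked as chosen after their values were seen. Alternatives were other scalings, background corrections, filters and models, the methods' t-test, and leaving out each array. The number of arrays, 2 in each group, limits the precision. The gene of 1 of the 11 probes whose response differed between low and high Cd109 is not reported here.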

Additional observations from a re-analysis of the deposited data

Results flagged for a closer look

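For 11 probes the response to DMBA differed between the arrays with a low and with a high Cd109 signal, by limma's test of the difference itself with adjustment over 35456 probes. Each value is the log2 fold change on the low-Cd109 arrays minus that on the high-Cd109 arrays. It was positive for Aadacl4fm1 (3.09), Kcnj16, a potassium channel gene (3.53), Hlf (2.74) and the unnamed probes A_30_P01033037 (2.57) and A_30_P01021572 (2.79). It was negative for Mrgpra2b, a receptor of the Mas-related family (−6.55), Wfdc12, a whey acidic protein inhibitor gene (−5.40), Cdhr1 (−5.18), Olfr117 (−3.35) and Vmn2r26 (−3.28). Olfr117 and Vmn2r26 were well above background on no DMBA-treated array and lay near background on the high-Cd109 arrays, and Mrgpra2b was well above background on no DMBA-treated array of the low-Cd109 set, so their values are fitted differences and not sizes. After normexp the difference was −0.092 for Olfr117 and −0.0035 for Vmn2r26, and neither passed. The adjusted p was 0.0478 for Hlf, Mrgpra2b and Kcnj16 and 0.0405 for the others. For Wfdc12 the signals were −1.26 and −0.95 in DMBA-treated skin, against −1.46 and −1.99 in untreated skin of the low-Cd109 set, and 2.39 and 2.08 in DMBA-treated skin, against −3.95 and −3.62 in untreated skin of the high-Cd109 set. The gene therefore differed more widely between treatments in the high-Cd109 set. The sets also differed in hair gene signal, whose part was not tested.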

How the results depend on the processing

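Each result was recomputed with 1 choice changed at a time. The count of probes past the threshold, 6 in the main setting, was 3790 after normexp with an offset of 50 (2873 of the 3553 higher probes had a mean signal below −2), 2 without a filter, 0 among probes well above background on all 4 arrays, 0 with only the 4 low-Cd109 arrays in the fit, 2 with the deposited value table as scaled by the authors (added after the data were seen), and 2875 by the methods' t-test without adjustment but 0 after Benjamini-Hochberg. Without 1 array at a time it ranged from 0 to 17. It was 0 without either DMBA-treated CD109+/+ array or the untreated array labelled CD109+/+ replicate 2, 1 without the untreated CD109-/- replicate 2, 3 without either untreated array of the high-Cd109 set, 4 without the DMBA-treated CD109-/- replicate 2, and 17 without the DMBA-treated CD109-/- replicate 1, of which 3 were among the 6. The adjusted p of Cyp7b1 ranged from 0.0205 to 0.609 over 24 alternatives, of which 6 were past the threshold. The 11 probes that differed between low and high Cd109 became 5 after quantile normalization, 987 after normexp, 0 without a filter, and 0 to 3 without 1 array. Median centring shifted the median of all probes by −0.209 and normexp by 0.104; 18 of 43 gene lists had a positive median in the main setting, and 10 did after median centring. The causes of these changes were not tested.

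No paired analysis was possible because both untreated low-Cd109 arrays carry the number 2. With the groups as labelled 0 probes passed, and 1 passed with the replicate number as a block (Inmt, −6.17, adjusted p = 0.00924). With these groups, with or without the block, the log2 fold change reversed for Gsta4 (−0.19), Awat2 (−0.14), Shh (2.67), Gli1 (1.14), Msx1 (0.97), Krt25 (7.18) and Krt71 (6.32).

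Other reversals were Cdkn1a after median centring (−0.18) and normexp (−0.024), 9230009I02Rik (0.21) and Ahrr (0.039) after normexp, and Tgm3 with the mean of its probes (0.0055). Without 1 array, the range crossed 0 for Krt25 (−1.45 to 0.48), Krt71 (−0.83 to 0.52), Ahrr (−0.57 to 0.39), Cdkn1a (−0.14 to 0.19) and Ccng1 (−0.73 to 0.39). Of the genes that passed, Olfr117 was past the threshold in 10 of 21 alternatives, Vmn2r26 in 12 of 21 and 9230009I02Rik in 5 of 21.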

Other observations

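Of the 10 genes with the highest fold changes among those well above background, 5 (Cd300lf, Gbp6, Klra1, Rhox3a and Scn3b) shared 1 order of signal over all 8 arrays, with the DMBA-treated CD109-/- replicate 2 highest and the untreated array labelled CD109+/+ replicate 2 lowest. Gene by gene, other probes did not follow. The probe that represents Cd300lf had a log2 fold change of 2.77, while its other tested probes had 0.41 and 0.50. The probe of Gbp6 had 2.62 and its other tested probe −1.51. These 2 genes are thus known here only by probe.

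The next 4 genes were picked after their values were seen, belong to no list used here and are given as values with no test. Fkbp5, a glucocorticoid-inducible chaperone gene, had 3.69 and 3.11 in DMBA-treated skin, against 2.02 and 2.07 in untreated skin. Zbtb16, a transcription factor gene induced by glucocorticoids, had 2.70 and 2.52 in DMBA-treated skin, against 0.33 and 0.47 in untreated skin. Greb1, an oestrogen-responsive gene, had 1.5 and 0.79 in DMBA-treated skin, against −1.47 and −1.02 in untreated skin. The progesterone receptor gene Pgr had −1.25 and −2.77 in DMBA-treated skin, against −8.16 and −7.89 in untreated skin. Both untreated values lay near the Cd109 signal of the untreated CD109-/- replicate 2 (−8.11), which was not well above background. They therefore give no size for the change, and no bound is given. Whether the 4 genes share more than this choice was not tested.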
